A study of Homo sapiens with 6 samples.

Results

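MALAT1, NEAT1, NORAD and TUG1 are long noncoding RNAs, and GAS5, SNHG1 and ZFAS1 are spliced RNAs whose introns hold small nucleolar RNAs (snoRNAs). The eCLIP read clusters of FLAG-Angel1 on these 7 RNAs were examined to ask where an enzyme linked to ribosome quality control on mRNAs was cross-linked above input on RNAs of other kinds. A cluster was counted for a gene when it shared 1 nt or more with the gene interval of GRCh37, strand included. The intervals were chr11:65265233-65273939 on the plus strand for MALAT1, chr11:65190269-65213011 on the plus strand for NEAT1, chr20:34633544-34638882 on the minus strand for NORAD and chr22:31365633-31375381 on the plus strand for TUG1. For the snoRNA hosts they were chr1:173833039-173838020 on the minus strand for GAS5, chr11:62619460-62623386 on the minus strand for SNHG1 and chr20:47894715-47905797 on the plus strand for ZFAS1. In total, 204 of 205520 clusters were members, namely 68 of 102843 in FLAG-Angel1 replicate 1, 105 of 96960 in replicate 2 and 31 of 5717 in the control.

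In eCLIP, UV light ties proteins to the RNA they touch, the RNA pieces that come down with the protein are sequenced (the IP), and an input library cut to the same size range, prepared before precipitation, serves as the background. The libraries came from HEK293 cells (human embryonic kidney) of the Flp-In T-REx type, which take up tetracycline-inducible constructs at a set site, here N-terminally FLAG-tagged Angel1 under a tetracycline-regulated promoter. By the labels, each of the 6 libraries, controls included, was made from cells given 5 ng/mL tetracycline for 24 h and 400 mJ/cm2 of UV light at 254 nm, and the IPs used the M2 FLAG antibody. They comprise an IP and an input for each of 2 FLAG-Angel1 replicates and for 1 FLAG-only control. The control libraries also carry FLAG-Angel1 as their genotype in the labels, whereas the methods of the study describe parental cells with no FLAG fusion protein. The methods also mention a sample without UV exposure, which no label marks, so the control is called by its label, FLAG-only, throughout. Whether the replicates were separate cultures is not stated.

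MALAT1 is retained in the nucleus, where it gathers in nuclear speckles, and NEAT1 is the scaffold of paraspeckles. NORAD is an abundant unspliced RNA of the cytoplasm that binds PUMILIO proteins through many repeated sites, and TUG1 has been found both in the nucleus and in the cytoplasm. The hosts GAS5, SNHG1 and ZFAS1 are transcribed, spliced and exported, their introns are trimmed to snoRNAs that guide RNA modification in the nucleolus, and their spliced RNAs meet ribosomes. The spliced RNAs of GAS5 and SNHG1 are known to be short-lived because translation exposes them to nonsense-mediated decay. RefSeq (GRCh38.p14) lists 11 snoRNA genes within GAS5, 9 within SNHG1 and 3 within ZFAS1. It gives TUG1 as protein coding and the other 6 as long noncoding RNA, and it places MIR612 within NEAT1, and TALAM1 and MASCRNA within MALAT1.

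The first 50 bases of 4 of the RNAs are shown because snoRNA hosts are known to begin like the mRNAs of ribosomal proteins, with a pyrimidine tract at the start, and because NORAD, unlike GAS5, carried FLAG-Angel1 clusters at the 5′ end of its interval. They were taken from the RefSeq promoter windows of GRCh38.p14, which hold 6 of the 7 RNAs (not NEAT1), and are written in the direction of transcription. The windows of MALAT1 and TUG1 are not shown, so NORAD is the only RNA shown that is not a snoRNA host. Capitals mark runs of at least 5 pyrimidines (C or T) on the transcribed strand.
GAS5 (chr1:173868996-173869045, minus strand): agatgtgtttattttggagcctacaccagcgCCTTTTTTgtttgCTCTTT
SNHG1 (chr11:62855836-62855885, minus strand): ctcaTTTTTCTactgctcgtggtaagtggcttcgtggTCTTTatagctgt
ZFAS1 (chr20:49278642-49278691, plus strand): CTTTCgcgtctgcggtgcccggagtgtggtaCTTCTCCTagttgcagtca
NORAD (chr20:36050911-36050960, minus strand): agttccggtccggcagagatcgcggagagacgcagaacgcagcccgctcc
The ZFAS1 start lies inside the gene interval that RefSeq gives and is not its first base. Each of the 3 hosts held 2 such runs and NORAD held 0, but 62.3% of 35116 windows of this length held at least 1, so a run is a common property of gene starts. The runs were counted anywhere in the 50 bases. The ZFAS1 sequence opened with a run, and those of GAS5 and SNHG1 did not. A tract at the very start is therefore not shown here for GAS5 and SNHG1. These coordinates are on another build than the clusters and were not converted. The sequences under the clusters, and their place in exons, introns or snoRNAs, were not analysed here, because no genome or annotation of GRCh37 was used.

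Each cluster carries the authors' log2 fold of IP over input and a P for that fold. Enriched clusters are those whose P fell under 0.05 and whose log2 fold was positive. Where the log2 fold was 0 or negative the P was always 1, so it says nothing about clusters poorer in the IP than in the input. The read counts behind the clusters could be recovered from the fold and the P (3396701 IP and 722085 input reads in replicate 1, 2543630 and 2812210 in replicate 2, 209788 and 3249250 in the control). For clusters whose reads the P does not fix, nearly all with a P of 1, only the ratio is known, and the lowest whole numbers with that ratio are given as its least reads. Exact (Clopper-Pearson) 95% intervals of the log2 fold were set from these reads, and a cluster is called below input where its whole interval lay under 0. The intervals cover counting error only, clusters of 1 library are not replicates, and neighboring clusters can share reads. With 1 control library no test was made between libraries. Over the whole series the median cluster had 1 input read in replicate 1 and 2 in replicate 2 and in the control, and the ratio of IP to input library size was 4.70, 0.904 and 0.0646, so the folds of the 3 libraries are not on a common scale.

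In replicate 2 and in the control, clusters on the 7 RNAs were enriched less often than those of the library as a whole, and in all 3 libraries many of them were poorer in the IP than in the input. In replicate 1, 7 of 68 clusters were enriched (10.3%, Wilson 95% interval 5.08% to 19.8%), close to the 11.7% of all clusters of that library. In replicate 2, 23 of 105 were enriched (21.9%, interval 15.1% to 30.7%), where 40.7% of all clusters were. In the control, 9 of 31 were enriched (29.0%, interval 16.1% to 46.6%), where 91.8% of all clusters were. In replicate 1 the interval of the members' share includes the share of all clusters. The Wilson intervals treat clusters as independent, although clusters lie on only 7 RNAs and neighbors can share reads. They describe the shares and are not a test. At the threshold of 0.001, 2 of the 68 clusters passed in replicate 1, against 4.22% of all, and 6 of the 105 in replicate 2, against 17.0% of all. No member of the control passed it.

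Clusters at or under a log2 fold of 0 made up 33 of 68 in replicate 1 (48.5%, interval 37.1% to 60.2%), against 31.2% of all clusters. In replicate 2 they were 43 of 105 (41.0%, interval 32.0% to 50.5%), against 2.59%, and in the control 13 of 31 (41.9%, interval 26.4% to 59.2%), against 2.75%. Such clusters made up a far larger share here than over all clusters in replicate 2 and in the control. The members also had more input reads there, a median of 16 and 80.5 against 2 and 2 over all clusters. These contrasts, and those that follow in this paragraph, are therefore not matched for depth. The whole interval lay below 0 in 18 clusters of replicate 1, against 0.564% of all clusters with recovered reads. In replicate 2 this held for 31 clusters, against 0.479%, and in the control for 2, against 1.52%. The median log2 fold of the members was 0.02 in replicate 1, where it was 0.57 over all clusters. It was 0.41 against 1.73 in replicate 2, and 0.53 against 5.20 in the control.

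**Figure D1:**
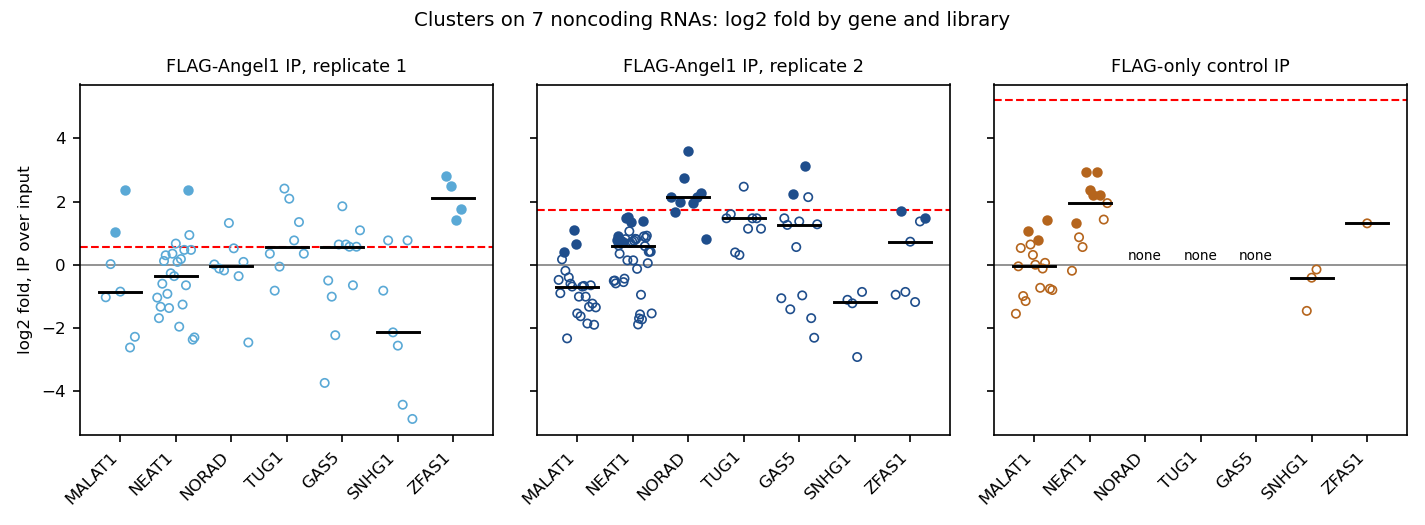
Log2 fold of IP over input (vertical axis) of each cluster on the 7 RNAs (horizontal axis), 1 panel per library. Filled points are enriched clusters, open points are the others, black bars are the median of a gene, the red dashed line is the median over all clusters of the library and the grey line is 0. NORAD stands wholly above 0 in replicate 2, SNHG1 lies below 0 in replicate 2 and in the control, and all 31 control points lie under the control's red line.

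Depth in the input differed among the 7 RNAs, from medians of 35, 97 and 103 reads per cluster on MALAT1 in replicate 1, replicate 2 and the control to 1 and 4 on TUG1 in the replicates. Together their clusters had a median of 3, 16 and 80.5 input reads in replicate 1, replicate 2 and the control. With only clusters of at least 10 input reads considered, 1 of 21 members was enriched in replicate 1 (4.76%), whereas 58.8% of all clusters of that depth were. In replicate 2 the numbers were 12 of 71 (16.9%) against 76.1%, and in the control 7 of 28 (25.0%) against 53.6%. These counts are mostly those of MALAT1 and NEAT1, which supplied 17 of the 21, 58 of the 71 and 24 of the 28 clusters. Of the other RNAs, NORAD, TUG1 and ZFAS1 had no cluster of this depth in replicate 1, and on NORAD both such clusters of replicate 2 were enriched. The median log2 fold of the deeper members was −1.37 and −0.48 in the FLAG-Angel1 replicates and 0.42 in the control, below 0 in both replicates, where it was above 0 over all members. Clusters below input were 16 of the 21 in replicate 1 (76.2%), against 9.71% of all clusters of that depth, and 31 of the 71 in replicate 2 (43.7%), against 6.07%. In the control they were 2 of 28 (7.14%), against 8.70%. The control IP is the smallest library, and its intervals are wide. Clusters at or under a log2 fold of 0 enter this count by their least reads, so some of greater depth may be missing.

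**Figure D2:**
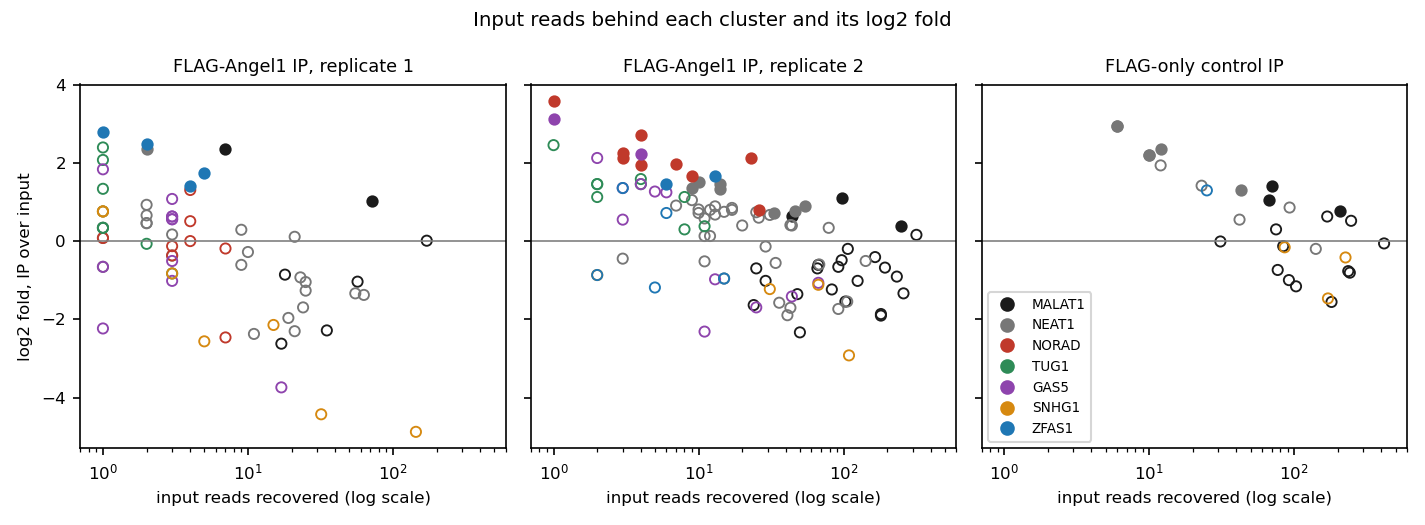
Log2 fold of IP over input (vertical axis) against the input reads recovered for each cluster (horizontal axis, log scale), 1 panel per library. Genes are shown by color and enriched clusters are filled. Least reads are drawn where the P does not fix the reads, at folds of 0 or below and at some above 0 in replicate 1. The 2 clusters without recovered reads are left out. The MALAT1 and SNHG1 clusters of replicate 2 with the most input reads lie mostly below 0, and the enriched NORAD clusters have 1 to 26 input reads.

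MALAT1 had 2 short stretches that were enriched in both replicates, in a transcript that otherwise lay mostly at or below its input. The stronger one, at chr11:65270500-65270632 and 5267 nt from the 5′ end, was the single reproducible peak on the 7 RNAs, meaning overlapping clusters past the threshold of 0.001 in both replicates, of 2243 in the series. In replicate 1 the cluster there held 170 IP and 7 input reads, a log2 fold of 2.37 (interval 1.29 to 3.70) with a −log10 P of 5.48. In replicate 2 it held 189 and 97 reads, a log2 fold of 1.11 (interval 0.75 to 1.48) with a −log10 P of 9.35. The control had a cluster at the same place from 65270535 to 65270632, with 17 IP and 169 input reads and a log2 fold of 0.64 (interval −0.17 to 1.36), which was not enriched. The control interval overlaps those of both replicates, and the part of the background in this peak was not tested.

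The other MALAT1 stretch passed the threshold of 0.05 in both replicates, at chr11:65268149-65268270. It held 695 IP and 72 input reads in replicate 1, a log2 fold of 1.04 (interval 0.69 to 1.41), and 293 and 247 reads in replicate 2, a log2 fold of 0.39 (interval 0.14 to 0.64). The control cluster there had a log2 fold of −0.99 on 3 IP and 92 input reads at least (interval −3.29 to 0.61). This is the deepest enriched site of the 7 RNAs, and its fold in replicate 2 was small. The cluster next to it toward the 5′ end, with 816 IP and 171 input reads in replicate 1, had a log2 fold of 0.02 (interval −0.22 to 0.27), so the enrichment did not extend to it.

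The rest of MALAT1 was poor in the IPs. Of its 7 clusters in replicate 1, 2 were enriched, beside 11.7% of all clusters, and 3 were below input. Their median log2 fold was −0.85, with a range of −2.62 to 2.37. Of the 23 in replicate 2, 3 were enriched, beside 40.7% of all clusters, and 17 were below input. Their median was −0.69, with a range of −2.33 to 1.11. The enriched clusters of both replicates all lay in the middle of 3 equal parts of the interval. From 5933 to 8280 nt in replicate 2, 12 consecutive clusters had log2 folds between −1.90 and −0.65, and the interval of each of the 12 lay below 0. In replicate 1 the same region held 2 clusters, with log2 folds of −2.62 (interval −3.78 to −1.49) and −2.28 (interval −3.00 to −1.55). The 3′ part of MALAT1 was thus below input in both replicates where clusters were listed.

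In the control, MALAT1 had 16 clusters of the 31 on all 7 RNAs, with a median log2 fold of −0.03 and a median of 103 input reads. Of the 16, 3 were enriched, beside 91.8% of all control clusters. The 3 lay from 65272921 to 65272985 (log2 fold 1.41, 12 IP and 70 input reads), from 65272083 to 65272131 (0.78, 23 and 208 reads) and from 65270033 to 65270068 (1.06, 9 and 67 reads). None of the 3 coincided with a cluster enriched in FLAG-Angel1, and the cluster of replicate 2 that overlapped the second had a log2 fold of −0.69. Toward the 5′ end, all 3 libraries began at nearly the same place, with first clusters at 1282, 1288 and 1301 nt. That shared cluster was below input in replicate 1 (log2 fold −1.03), replicate 2 (−0.48) and the control (−1.55).

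NEAT1 had the longest interval and the most clusters of the 7 RNAs in the FLAG-Angel1 libraries, and no site that was enriched in both replicates. Per kb of interval it did not rank first. Clusters were denser on GAS5, SNHG1 and NORAD in replicate 1 and on MALAT1 and GAS5 in replicate 2, and sparser on the other RNAs. NEAT1 is made as a short form and a long form that share their 5′ end, and in paraspeckles the ends of the long form face outward while its middle lies in the core. In replicate 1, 1 of 23 clusters was enriched, beside 11.7% of all clusters, and 9 were below input. Their median log2 fold was −0.36, with a range of −2.37 to 2.38. In replicate 2, 7 of 40 were enriched, beside 40.7% of all clusters, and 7 were below input. Their median was 0.60, with a range of −1.89 to 1.52. Both replicates thus had folds on each side of 0 that exceeded counting error. Replicate 2 listed more clusters on NEAT1 but fewer over the whole library, 96960 against 102843, and the cause was not tested.

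Along NEAT1, replicate 2 alternated between stretches above and below 0. The first 3 clusters, from 14 to 477 nt, had log2 folds between −0.59 and −0.50, and 2 of them were below input. The next 7, from 593 to 1721 nt, lay above 0, at 0.35 to 0.90, and 3 were enriched. Of these 3, 1, at a log2 fold of 0.72, lay over an enriched control cluster at 1.33. Another was the cluster with the smallest P on NEAT1, from 65190933 to 65191028. It held 91 IP and 54 input reads, a log2 fold of 0.90 (interval 0.40 to 1.41) with a −log10 P of 3.49. The change of sign between these neighboring stretches came on at least 11 to 142 input reads per cluster in the former and 25 to 79 in the latter. From 4244 to 13533 nt, 12 consecutive clusters lay above 0, at 0.14 to 1.52, of which 3 were enriched. They were followed by 6 at or below 0 from 15225 to 19855 nt, at −1.89 to −0.13, of which 4 were below input. A last stretch of 9 from 20392 to 22121 nt lay above 0, at 0.05 to 1.37, with 1 enriched, and the final cluster had a log2 fold of −1.54 on 33 IP and 106 input reads at least. The low stretch between 15225 and 19855 nt had no cluster of replicate 1 or of the control, so it stands on 1 library.

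Replicate 1 was also low at the 5′ end of NEAT1. Its first 4 clusters, from 0 to 793 nt, had log2 folds between −1.69 and −0.60, and 3 of them were below input. Its last 2 clusters had log2 folds of −2.37 and −2.30, each below input, as in replicate 2. In the stretch where replicate 2 first lay above 0, replicate 1 had log2 folds of −0.60, 0.12 and 0.30 at 758, 994 and 1634 nt, none enriched. The first of these (interval −1.72 to 0.67) shared 2 nt with the cluster of replicate 2 with the smallest P, at 0.90. Farther on, from 7355 to 7525 nt, a cluster of replicate 1 lay at −1.26 (interval −1.99 to −0.51), where replicate 2 had clusters at 0.69 and 1.34, so here the replicates opposed each other. The 1 enriched cluster of replicate 1, from 65211527 to 65211675, had a log2 fold of 2.38 (interval 0.45 to 5.47) on 49 IP and 2 input reads, with a −log10 P of 2.07. The clusters of replicate 2 that overlapped it had log2 folds of 0.86 and 0.92 and were not enriched.

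In the control, NEAT1 had the highest median log2 fold of the 4 RNAs with clusters, at 1.95 over 11 clusters. Of the 11, 6 were enriched, beside 91.8% of all control clusters. The 6 all lay in the 5′-most of 3 equal parts, on 3 to 7 IP reads each. Those with the smallest P lay from 65194346 to 65194391 (log2 fold 2.37, 4 IP and 12 input reads), from 65193673 to 65193708 (2.95, 3 and 6 reads) and from 65194887 to 65194910 (2.95, 3 and 6 reads). These folds are below the control's overall median of 5.20 and rest on few reads. Over control clusters of at least 10 input reads the median was 1.74. In the 3′-most part of NEAT1 the control had 0 clusters, whereas replicate 1 had 5 and replicate 2 had 16.

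**Figure D3:**
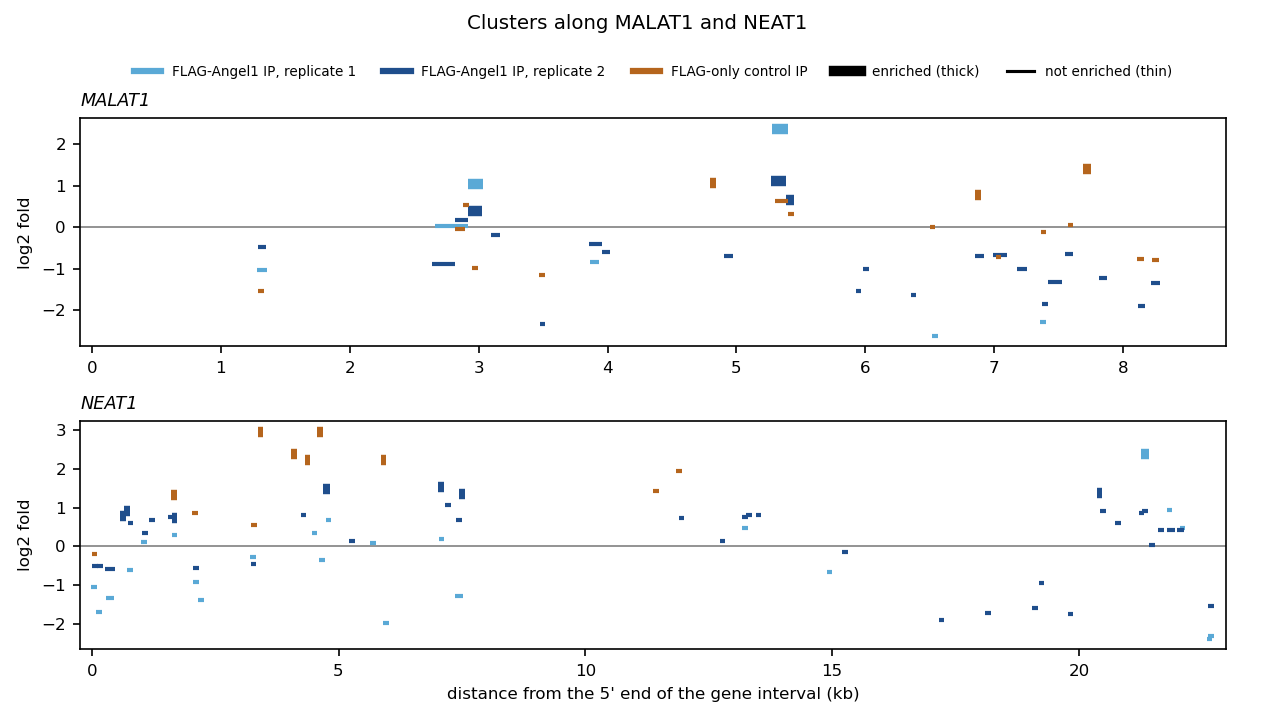
Clusters along MALAT1 and NEAT1 drawn to scale, with the distance from the 5′ end of the gene interval in kb (horizontal axis) and the log2 fold of IP over input (vertical axis), colored by library, thick where enriched. On MALAT1 the enriched FLAG-Angel1 clusters stand in the middle and the 12 clusters of replicate 2 beyond 5933 nt lie below 0. On NEAT1, 6 clusters of replicate 2 between 15225 and 19855 nt lie at or below 0.

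NORAD, the cytoplasmic RNA of the group, had the largest median difference between overlapping clusters of the replicates. All 9 of its clusters were enriched in replicate 2, beside 40.7% of all clusters. Their median log2 fold was 2.14, with a range of 0.80 to 3.60, and 3 passed the threshold of 0.001, beside 17.0% of all clusters. In replicate 1, 0 of 8 were enriched, beside 11.7% of all clusters, with a median of −0.05 and a range of −2.46 to 1.32. The control had 0 clusters on NORAD. The cluster with the smallest P, from 34638698 to 34638848 and thus 34 nt from the 5′ end, held 92 IP and 23 input reads in replicate 2, a log2 fold of 2.14 (interval 1.47 to 2.87) with a −log10 P of 11.2. It had the smallest P of all 204 member clusters. Replicate 1 had 2 clusters under it, with log2 folds of 0.01 (interval −1.58 to 2.03) and −0.12 (interval −1.98 to 2.33) on least reads of 19 over 4 and 13 over 3.

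Further along NORAD the enriched clusters of replicate 2 included one of 24 IP and 4 input reads from 34638245 to 34638322 (log2 fold 2.73, interval 1.19 to 4.72) and one of 25 and 7 reads from 34638474 to 34638544 (1.98, interval 0.73 to 3.43), both named after their values were seen. Of the 9, 5 lay in the 5′-most of 3 equal parts of the interval, 3 in the middle and 1 in the 3′-most. The smallest P of replicate 1 belonged to the cluster from 34638446 to 34638548, with 47 IP and 4 input reads, a log2 fold of 1.32 (interval −0.13 to 3.25) and a −log10 P of 1.03. In 6 overlapping pairs the fold was higher in replicate 2 each time, by a median of 2.17 on the log2 scale (0.66 to 3.26), and the intervals were apart in 1 pair. That pair lay 4110 nt from the 5′ end, at −2.46 (interval −4.30 to −0.66) in replicate 1 and 0.80 (interval 0.06 to 1.57) in replicate 2. The median input depth on NORAD was 4 reads in both replicates, and the part of depth in this difference was not tested. Over all overlapping clusters of the series the median difference in the same direction was 1.06.

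TUG1 had clusters in both replicates, and none was enriched, beside 11.7% of all clusters in replicate 1 and 40.7% in replicate 2. Replicate 1 had 8, with a median log2 fold of 0.56 and a range of −0.82 to 2.41, and replicate 2 had 9, all above 0, with a median of 1.47 and a range of 0.31 to 2.47. The smallest P of replicate 1 was that of the cluster from 31368901 to 31369088, with 25 IP reads over 1 input read, a log2 fold of 2.41 (interval −0.20 to 7.77) and a −log10 P of 1.15. In replicate 2 it was that of the cluster from 31367676 to 31367757, with 11 over 4 reads, a log2 fold of 1.60 (interval −0.15 to 3.71) and a −log10 P of 1.17. Every TUG1 interval of both replicates included 0, and the median input depth was 1 read in replicate 1 and 4 in replicate 2. On NORAD, at the same median input depth in replicate 2, all 9 clusters were enriched. Their IP reads were more, with a median of 24 (11 to 92) against 9 (4 to 16) on TUG1. The part of depth in this contrast was not tested. The control had 0 clusters on TUG1.

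Among the snoRNA hosts, ZFAS1 had sites enriched in both replicates, SNHG1 had sites below input in both and no enriched cluster, and GAS5 was mixed. Together the 3 hosts had 4 enriched clusters of 22 in replicate 1 (18.2%), 4 of 24 in replicate 2 (16.7%) and 0 of 4 in the control, beside the 11.7%, 40.7% and 91.8% of all clusters.

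On ZFAS1, all 4 clusters of replicate 1 and 2 of the 7 of replicate 2 were enriched, beside 11.7% and 40.7% of all clusters. The median log2 folds were 2.12 and 0.73. The 4 clusters of replicate 1 had 1 to 5 input reads, and the interval of 1 of them, at 1.41, included 0 (−0.04 to 3.34). The site at chr20:47895641-47895746, 926 nt from the 5′ end, held 53 IP and 2 input reads in its stronger cluster of replicate 1, a log2 fold of 2.49 (interval 0.57 to 5.58) with a −log10 P of 2.42. Replicate 2 had 38 IP and 13 input reads there, a log2 fold of 1.69 (interval 0.75 to 2.73) with a −log10 P of 3.71. The second site, at chr20:47905588-47905682 and 10873 nt from the 5′ end, held 79 and 5 reads in replicate 1, a log2 fold of 1.75 (interval 0.46 to 3.41). In replicate 2 it held 15 and 6 reads, a log2 fold of 1.47 (interval 0.02 to 3.12), with a −log10 P of 1.32, just past the threshold. Both sites thus passed 0.05 in each replicate, and neither passed 0.001 in both. ZFAS1 and MALAT1 were the only ones of the 7 RNAs with such sites, 2 each, of 6843 in the series. The control had 1 cluster on ZFAS1, elsewhere, at a log2 fold of 1.31 (interval −0.67 to 2.84) on 4 IP and 25 input reads.

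SNHG1, the host of SNORD22 and of SNORD25 to SNORD31, had the lowest median log2 fold in each IP among the RNAs with clusters there, at −2.14 and −1.17 in the FLAG-Angel1 replicates and −0.41 in the FLAG-only library. All of its clusters had a P of 1, so those described here were picked by their low folds, after the values were seen. The lowest fold of all 204 member clusters was that from 62620827 to 62620853 in replicate 1, at −4.88 (interval −5.58 to −4.24) on at least 23 IP and 144 input reads. The cluster of replicate 2 over it lay at −2.92 (interval −3.88 to −2.09) on at least 13 and 109 reads, the lowest fold of that replicate too. The same place in the control had log2 folds of −0.41 (interval −1.43 to 0.46) and −0.15 (interval −1.81 to 1.13), each including 0.

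Nearby, from 62621144 to 62621185, replicate 1 had a log2 fold of −4.43 (interval −5.85 to −3.22) on at least 7 IP and 32 input reads. Replicate 2 had −1.22 (interval −2.32 to −0.22) over it, on at least 12 and 31 reads. The control had −1.46 (interval −3.36 to −0.08) on at least 4 and 171 reads, so all 3 libraries were below input at this site. Toward the 5′ end, the cluster from 62622760 to 62622841 had −2.14 (interval −3.25 to −1.02) in replicate 1, and −1.11 (interval −1.81 to −0.46) in replicate 2, with no control cluster. In all, 4 of 7 SNHG1 clusters in replicate 1, 3 of 4 in replicate 2 and 1 of 3 in the control were below input. Whether the low clusters are intronic snoRNA, which is abundant in the nucleolus, or exonic RNA was not analysed here.

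GAS5 clusters spanned from below input to enriched in replicate 2. Of 13 clusters there, 2 were enriched, beside 40.7% of all clusters, and 4 were below input. Their median log2 fold was 1.26, with a range of −2.31 to 3.14. Of 11 in replicate 1, 0 were enriched, beside 11.7% of all clusters, and 1 was below input. Their median was 0.57, with a range of −3.74 to 1.85. The cluster with the smallest P, from 173835668 to 173835728, held 17 IP and 4 input reads in replicate 2, a log2 fold of 2.23 (interval 0.62 to 4.26) with a −log10 P of 2.47. The cluster of replicate 1 over it lay at 0.64 (interval −1.09 to 3.02). In replicate 1 the smallest P was that of the cluster from 173833114 to 173833221, at a log2 fold of 1.09 (interval −0.60 to 3.44) on 30 over 3 reads, with a −log10 P of 0.592. The 5′-most site was low in both replicates, at −3.74 (interval −5.37 to −2.33) in replicate 1 and −1.06 (interval −1.74 to −0.41) in replicate 2. These first clusters stood 1162 and 1137 nt from the 5′ end of the interval. Whether the interval holds the pyrimidine runs shown for GAS5 was not established, because the builds were not converted. A cluster on those runs may therefore not have been counted. The control had 0 clusters on GAS5.

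**Figure D4:**
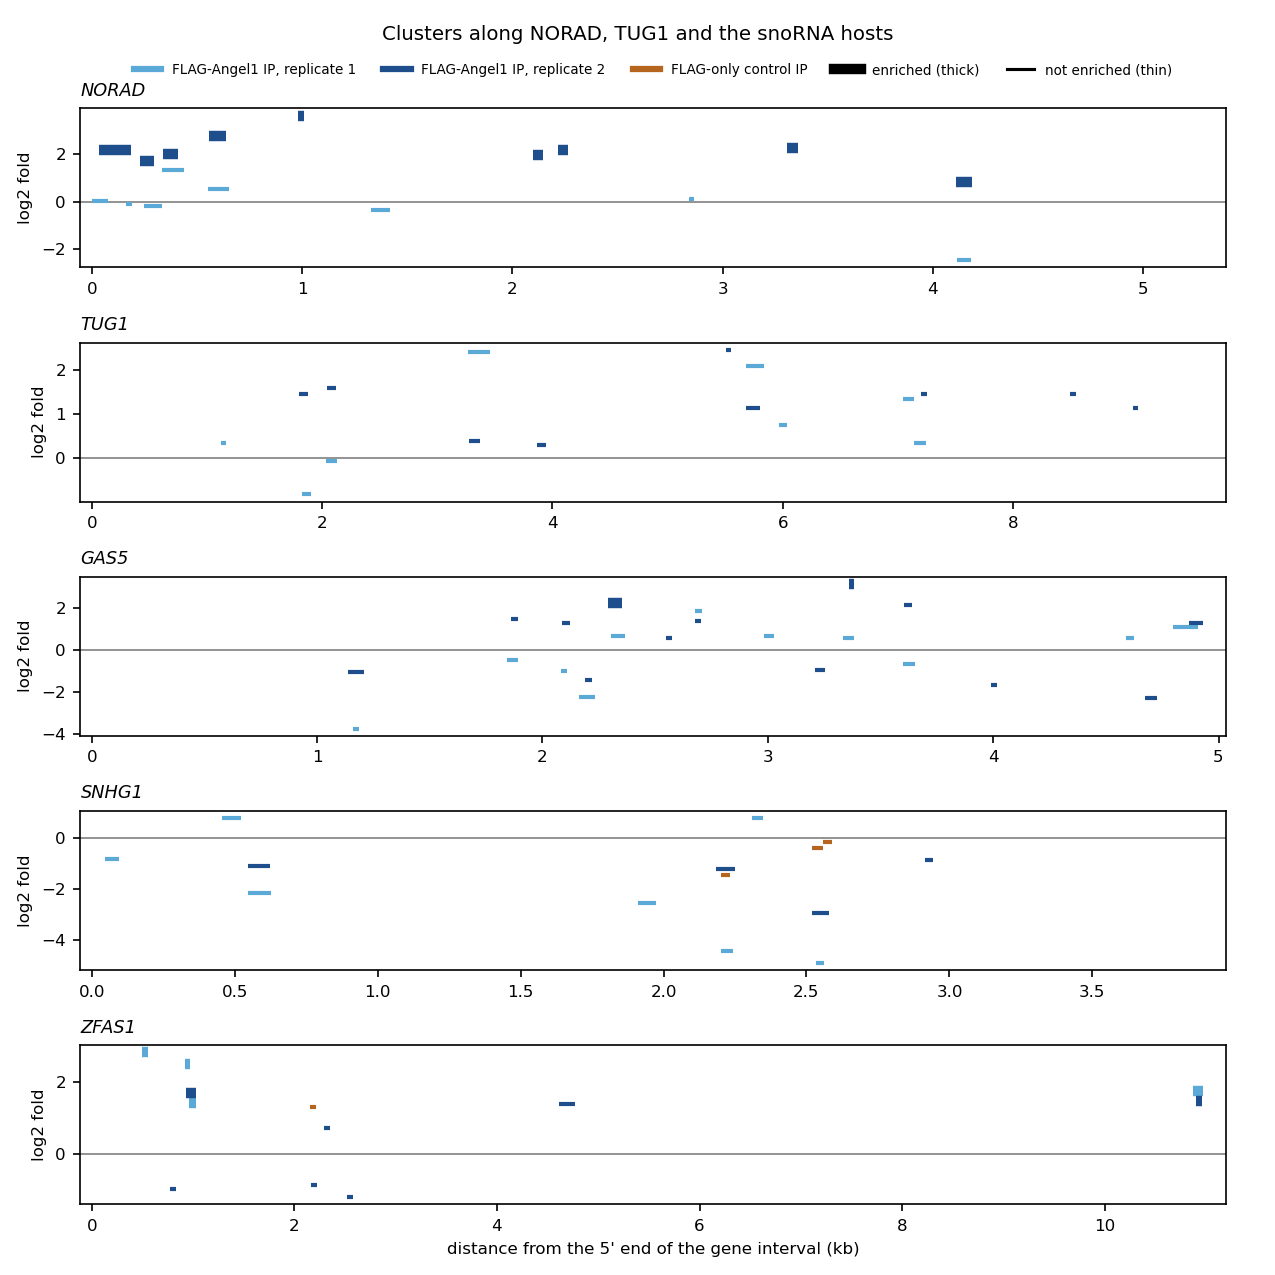
Clusters along NORAD, TUG1, GAS5, SNHG1 and ZFAS1 drawn to scale, with the distance from the 5′ end of the gene interval in kb (horizontal axis) and the log2 fold of IP over input (vertical axis, own range per gene), colored by library, thick where enriched. All 9 NORAD clusters of replicate 2 are enriched, no TUG1 or SNHG1 cluster is, and ZFAS1 has an enriched cluster of both replicates near each end.

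Between the replicates, clusters of the 7 RNAs coincided about as often as in the series or more. Of the clusters of replicate 1, 49 of 68 overlapped one of replicate 2 (72.1%, where all clusters gave 52.6%), and of those of replicate 2, 52 of 105 overlapped one of replicate 1 (49.5%, where all gave 54.6%). They formed 57 pairs, of which 42 had the higher fold in replicate 2, with a median difference of 0.74 and a range of −2.02 to 3.26. Over the series, 49239 of 60874 pairs had the higher fold in replicate 2, with a median difference of 1.06. Of the 57 pairs, 6 were enriched in both replicates, all on MALAT1 and ZFAS1, 3 only in replicate 1, 13 only in replicate 2 and 35 in neither. Of the 60874 pairs, 11844 were enriched in both, 1522 only in replicate 1, 23228 only in replicate 2 and 24280 in neither. Intervals were apart in 10 of the 57 pairs, 4 of them on MALAT1, formed by 3 clusters of replicate 1 with the higher fold each time. On SNHG1 the 3 pairs were higher in replicate 2 by a median of 1.96, on GAS5 8 of 9 were, also by a median of 1.96, and on ZFAS1 1 of 3 was.

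**Figure D5:**
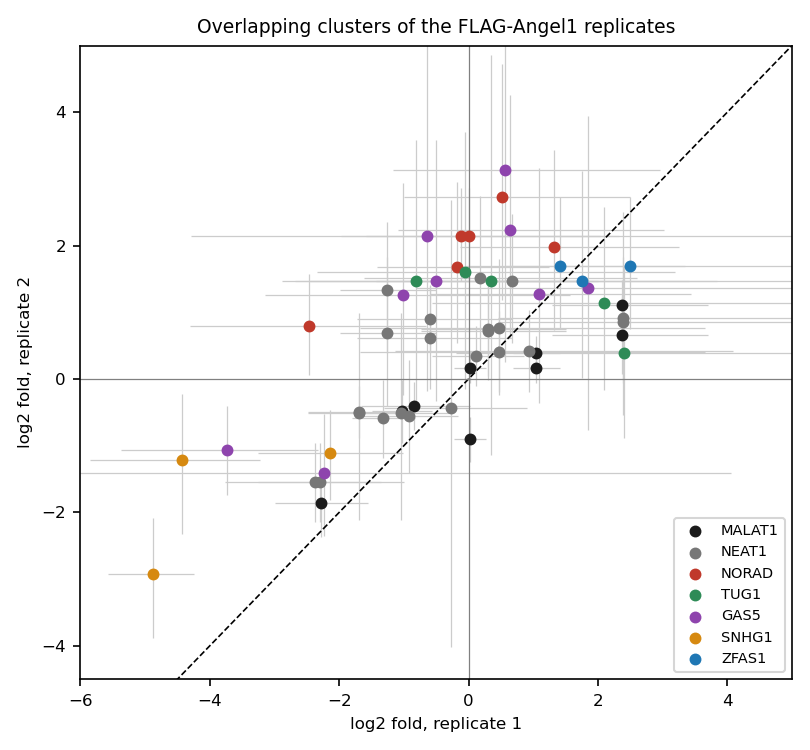
Log2 fold of IP over input in replicate 1 (horizontal axis) and replicate 2 (vertical axis) for the 57 overlapping pairs, colored by gene, with exact 95% intervals as grey lines, some of which run past the axes, and equality as the dashed line. NORAD pairs lie above the dashed line and SNHG1 pairs in the lower left.

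Control clusters lay under the member clusters more often than under clusters of the series. A control cluster overlapped 14 of 68 in replicate 1 (20.6%, where all clusters gave 2.58%) and 19 of 105 in replicate 2 (18.1%, where all gave 2.66%). MALAT1 supplied 6 of the 14 and 12 of the 19, while NORAD, TUG1 and GAS5 supplied 0. With enriched control clusters only, the overlap was 2 of 68 (2.94%) and 2 of 105 (1.90%), close to the 2.08% and 2.05% of all clusters. At 15 places clusters of all 3 IPs coincided, 7 on MALAT1, 5 on NEAT1 and 3 on SNHG1. A place without a control cluster is not shown to be free of background, since the control IP had 209788 reads.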

How the data were processed

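Reads of 6 eCLIP libraries were processed by the authors with the Yeo laboratory's eCLIP pipeline. The submitters' processing notes name cutadapt, STAR, SAMtools and UMI-tools, with versions not given in the sources used here, and GRCh37 (hg19). Clusters were called in each IP separately and normalized to its own input. The authors deposited for each cluster a log2 fold (IP relative to input) and a −log10 P, capped at 400 and set to 0 wherever the log2 fold was not positive. Lists of the 3 IPs were used, and inputs entered only through the folds.

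Library sizes were recovered as the whole numbers that fit the folds, and reads per cluster as the pair that returned the fold within a relative 1e-12 and the −log10 P within 0.0001, by Fisher's exact test where a cell was under 5 and otherwise chi-square with Yates correction. A value of 1 input read may be a minimum set by the pipeline. Reads, exact or as lowest terms, were recovered for 99.5%, 99.7% and 99.9% of the clusters of replicate 1, replicate 2 and the control, and for members exactly in 107 and as lowest terms in 95, with 2 left. On simulated data, 100%, 100% and 99.2% of the counts of scored clusters were recovered (2000 simulated clusters per library, replicate 1, replicate 2 and control in order).

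Coordinates are counted from 1, overlaps need 1 nt on the same strand, and shares carry Wilson 95% intervals. The clusters named were, per gene, up to 3 reproducible peaks, else up to 2 pairs enriched in both replicates, else the smallest P of each replicate, and in the control up to 3 enriched clusters of smallest P; others are marked as chosen after their values were seen, as are the ends and runs of clusters along a gene. Members and lists were chosen with earlier results of these data known. Alternatives covered thresholds, overlap, strand, depth, single replicates and single genes. A planned list of other noncoding RNAs was not analysed here, because no annotation of GRCh37 was used. Python 3.11.15, numpy 2.4.6, pandas 2.3.3, scipy 1.17.1 and matplotlib 3.10.9 were used.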

Additional observations from a re-analysis of the deposited data

How the results depend on the processing

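The median log2 folds of the 7 RNAs moved by less than the SD of 0.28 between the replicate medians when weighted by width or taken over clusters of at least 50 nt. Over clusters of at least 10 input reads the median turned from 0.02 to −1.37 in replicate 1 and from 0.41 to −0.48 in replicate 2, and in the control it was 0.42 in place of 0.53. Most of these deeper clusters lie on MALAT1 and NEAT1, and the cause was not tested. The number of enriched clusters changed with the threshold and with single genes. At the threshold of 0.001 it fell from 7 to 2 in replicate 1, from 23 to 6 in replicate 2 and from 9 to 0 in the control, and it was 0 in each when a log2 fold of 3 was also required, because these thresholds admit fewer clusters. Without ZFAS1 it was 3 in replicate 1, without NORAD 14 in replicate 2 and without NEAT1 3 in the control, so 1 RNA supplied much of each count. Among clusters of at least 10 input reads it was 1 in replicate 1 and 12 in replicate 2, and with the exact interval wholly above 0 it was 5 in the control. These settings by reads were chosen after seeing the data. The single reproducible peak became 4 when 0.05 sufficed in both replicates, and clusters past 0.001 in a single replicate, the other being left out, numbered from 2 to 6. Reciprocal overlap of 50% lowered the replicate overlap from 72.1% to 44.1% in replicate 1 and from 49.5% to 28.6% in replicate 2, where enriched clusters of both replicates alone gave 21.7%. The overlap with the control fell from 20.6% to 2.94% and from 18.1% to 1.90% with enriched control clusters only, and rose to 26.7% in replicate 2 with a control cluster allowed within 100 nt. Clusters below input, an analysis chosen after seeing the data, numbered 9 instead of 18 in replicate 1 without NEAT1, 14 instead of 31 in replicate 2 without MALAT1, and 1 instead of 2 in the control without MALAT1 and also without SNHG1. Of 98 alternatives for the 7 RNAs together, 71 left the result within its bounds, 25 moved it, and 2, the medians by depth, turned its sign. No paired analysis was possible because no test between groups was made, and the numbered inputs were seen only through the folds.

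Depth limits replicate 1 through its input of 722085 reads and the control through its IP of 209788 reads. On TUG1, and on most of NORAD, GAS5 and ZFAS1, few input reads stand behind a cluster, and folds there have wide intervals. Clusters at a log2 fold of 0 or below have only least reads, so their intervals are the widest that the fold allows.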

Other observations

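On the strand opposite to the 7 RNAs, 1 cluster was listed in replicate 1 and 0 in replicate 2 and in the control, against 68, 105 and 31 on the same strand. It lay at chr20:47894661-47894732 on the minus strand, at the 5′ edge of ZFAS1, with a log2 fold of 0.94 on 9 IP reads over 1 input read, and it was not enriched.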
